A study of Chlorocebus sabaeus with 10 samples.

Results

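The transcriptome described is that of the liver of female vervet monkeys (Chlorocebus sabaeus, an Old World primate) kept on a chow diet. The study put 10 females on either chow (n = 5) or a high fructose diet (n = 5) for 6 weeks, with age and body weight balanced between the groups, and all 10 animals had eaten chow before. Members were chosen by the diet label alone, and the 5 chow livers of the 10 in the series are described, with 1 biopsy and 1 library from each animal. The labels name no genotype, engineered allele or drug. Biopsies were frozen in liquid nitrogen, and stranded libraries of polyadenylated RNA were made from total RNA and sequenced as read pairs. No contrast was made and no difference below was tested. Every statement compares levels or shares between 5 animals on the same diet. Values given for a gene follow the order of chow animals 1 to 5.

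The liver is a secretory and a metabolic organ. Hepatocytes, its main cell type, make most plasma proteins, among them albumin, transport proteins, apolipoproteins, clotting factors, complement and the proteins of the acute phase response, and release them into the blood. The same cells store and make glucose, oxidize and synthesize fatty acids, make cholesterol and bile acids, dispose of ammonia as urea and clear drugs with cytochrome P450 enzymes. Their sinusoids are lined by endothelial cells and hold resident macrophages (Kupffer cells), stellate cells lie beneath that lining, and cholangiocytes form the bile ducts.

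The 5 libraries held 2977282 to 4663431 estimated counts. Mitochondrial transcripts took 57.1%, 34.7%, 43.0%, 73.6% and 68.7% of them, which left 1557158, 2022640, 2657103, 864571 and 932119 counts on nuclear transcripts, a 3.07-fold range of depth. Of 28041 nuclear transcripts in the deposited table, 15358 had a count in at least 1 chow animal and 10591 in all 5. Levels are given as normalized counts: each count was divided by the nuclear library size times a scaling factor from the TMM method of edgeR and expressed per 1000000. The factor was 1.20 for animal 1, 0.871 for animal 3 and 0.962 to 1.01 for the others, so that a normalized count of animal 1 lies 0.27 lower on the log2 scale than without this factor and that of animal 3 lies 0.20 higher. Transcript lengths were not used, so different genes are compared only by their share of nuclear counts, which also depends on transcript length.

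Nuclear counts were concentrated in a small number of secreted proteins. The 10 most abundant transcripts took 20.1% ± 2.62 of nuclear counts (SD, n = 5), the 100 most abundant took 42.3% ± 4.45 and the 1000 most abundant took 71.6% ± 3.32. Ranked by mean share, 194 transcripts reached 50% of the nuclear counts. ALB (albumin, the main protein of plasma; ENSCSAG00000004812, ChlSab1.1 chromosome 7 from 21876132 to 21891408) was the most abundant nuclear transcript in each of the 5 livers, with 6.39, 9.06, 9.29, 6.48 and 7.71% of nuclear counts. Its mean share was 7.79% ± 1.38 (SD, n = 5). Animals 2 and 3 had the larger shares of ALB and animals 1 and 4 the smaller ones.

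Of the 20 most abundant transcripts, 15 belonged to a list of secreted proteins, 3 to a list of metabolic enzymes, 1 (VTN, the adhesion protein vitronectin) to neither and 1 had no gene name. The unnamed gene, ENSCSAG00000004233 on chromosome 5 from 55205338 to 55211645, a protein-coding gene between DHODH and TXNL4B, took 1.74, 3.04, 3.14, 3.06 and 2.49% of nuclear counts and ranked the second in all 5 animals. It was followed by RBP4 (the retinol carrier, mean share 1.71% ± 0.275), C3 (the central complement protein, 1.31% ± 0.314), APOA1 (the main protein of high density lipoprotein, 1.30% ± 0.296) and SERPINA1 (alpha-1-antitrypsin, 1.21% ± 0.271). ITIH4, TTR (transthyretin), TF (transferrin) and CYP2E1 closed the first 10 places, with mean shares from 0.905% to 1.17%. CYP2E1, the P450 that oxidizes ethanol, was the most abundant metabolic transcript, and CYP3A4 and PCK1, the rate-limiting enzyme of gluconeogenesis, were the other metabolic genes among the 20. The order below the second place was not stable: of the 19 pairs of neighbours among the 20, only ALB over ENSCSAG00000004233 and ENSCSAG00000004233 over RBP4 held in 5 of 5 animals. APOA2, for example, ranked between 7 and 32, APOE between 13 and 37, and FGA between 5 and 19. Of each animal's own 20 most abundant transcripts, 14 were shared by all 5 animals, and of the 100 most abundant 70 were shared.

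**Figure D1:**
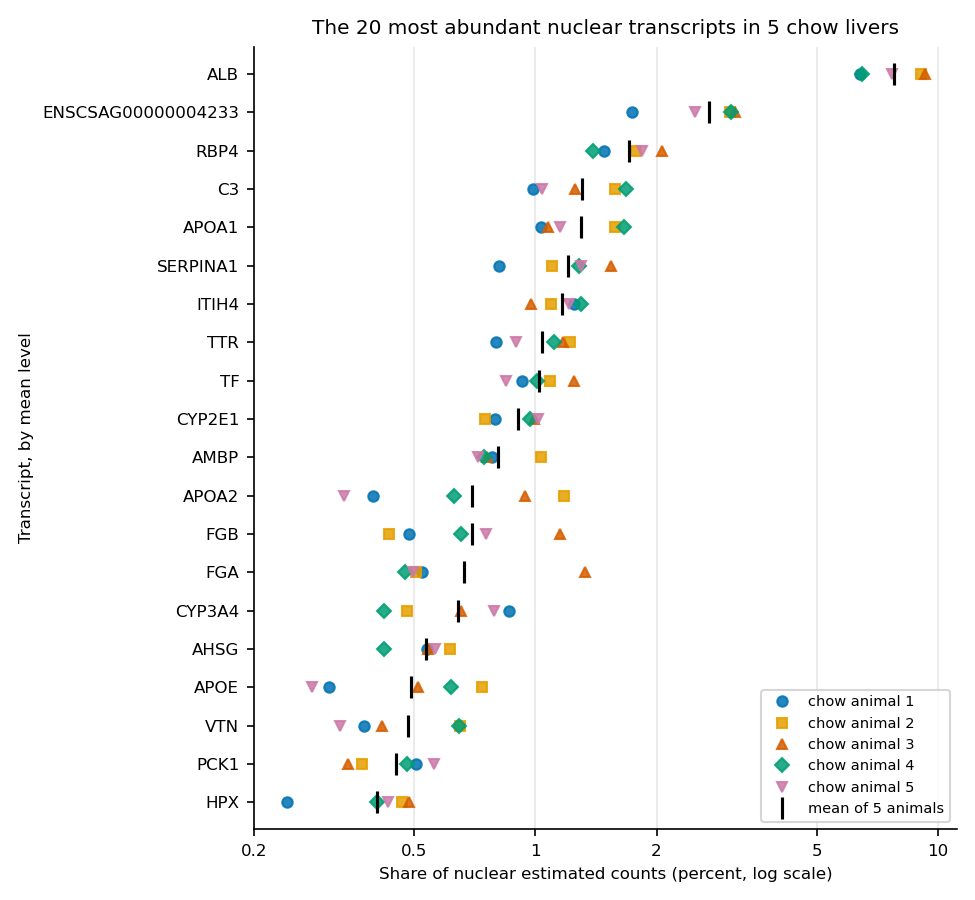
Share of nuclear estimated counts (percent, log axis) of the 20 most abundant nuclear transcripts, ordered by mean normalized count, with 1 symbol per chow animal and a black bar at the mean of 5. ALB stands apart at 6.39% to 9.29%, the symbols of neighbouring genes overlap from RBP4 downwards, and FGA of animal 3 lies away from the other 4 animals.

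Among 100 leading transcripts, 42 belonged to a secreted list, 21 to a metabolic list, 2 to another list and 17 had no gene name, and the remaining 18 were named genes outside every list. All secreted lists together, with 94 of their 107 symbols matched, took 22.9, 30.9, 33.6, 27.5 and 26.8% of nuclear counts (mean 28.3% ± 4.07 SD, n = 5). All metabolic lists, with 112 of 133 symbols matched, took 8.21, 7.63, 8.04, 7.89 and 8.96% (mean 8.15% ± 0.503 SD, n = 5). The secreted share was lowest in animal 1 and highest in animal 3, and its range was 1.46-fold, against 1.17-fold for the metabolic share. On the normalized scale the range was 2.02-fold for the secreted and 1.35-fold for the metabolic lists. The animals at the ends of the metabolic range depended on the scale: animals 2 and 5 had the lowest and the highest share of counts, animals 1 and 3 the lowest and the highest normalized sum. The secreted share was larger in animals 2 and 3, whose mitochondrial share was the lowest (34.7% and 43.0%), than in the other 3 animals (57.1% to 73.6%), and the part of this in the result was not tested.

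Most transcripts differed less than 2-fold between the animals, but by more than counting error. For the 4131 nuclear transcripts with a mean of at least 50 counts, the median coefficient of variation (CV, SD over mean of the 5 animals) was 22.6%, where counting error alone would give a median of 10.2%. The CV was at or below its counting error for 6.46% of these transcripts. The typical spread between animals, as the common biological coefficient of variation of edgeR, was 29.7% (jackknife standard error over animals 1.15). The highest animal was less than 2 times the lowest for 66.6% of transcripts, and the median ratio was 1.75. A ratio of at least 4, called a wide range from here on, was met by 232 transcripts, which is 5.62% of those measured, and a ratio of at least 10 by 48. A single high animal made many of these: 125 of the 232 fell below 4 without their highest animal. The highest animal of a wide transcript was animal 3 in 71 cases, animal 2 in 52, animal 5 in 51 and animals 1 and 4 in 29 each. Over all 4131 measured transcripts the highest animal was animal 3 for 925, animal 4 for 866, animal 5 for 859, animal 2 for 819 and animal 1 for 662. The lowest was animal 1 for 959, animal 5 for 856, animal 2 for 816, animal 4 for 751 and animal 3 for 749. Without both animals of the lowest nuclear depth (4 and 5) the number of wide transcripts was 143, or 2.94% of 4872.

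**Figure D2:**
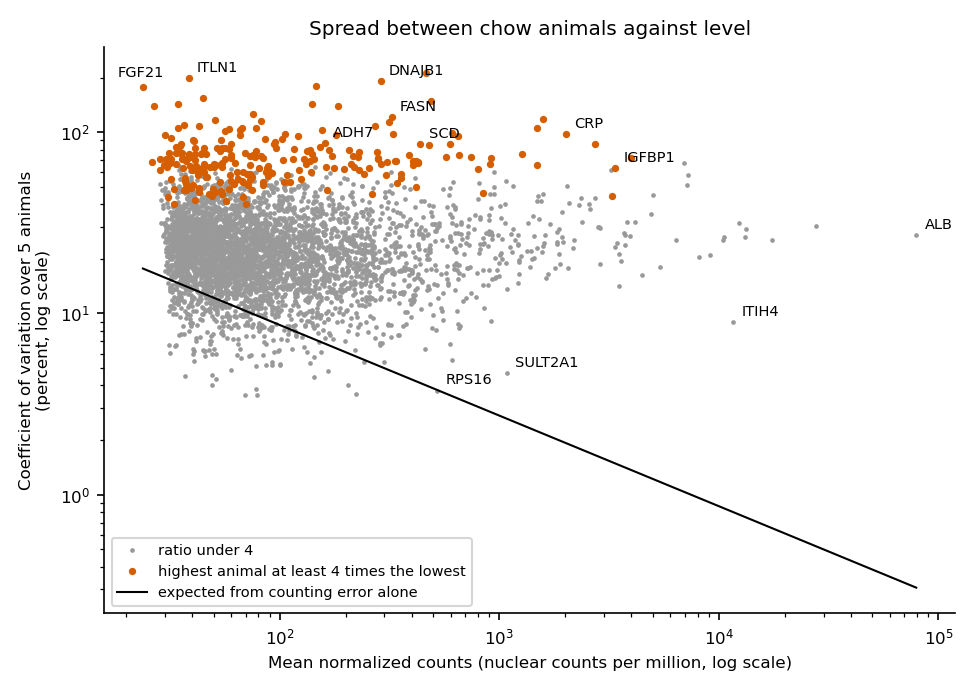
Coefficient of variation over the 5 chow animals against mean normalized counts for 4131 nuclear transcripts (both axes log). The black line is the spread expected from counting error alone, orange points are the 232 transcripts whose highest animal was at least 4 times the lowest; ALB has a CV of 27.1%, SULT2A1 one of 4.69% and RPS16 one of 3.75%.

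The plasma carriers, which bind hormones, vitamins, metals and heme in blood, took the largest share of any secreted list, 13.9% ± 2.14 of nuclear counts (SD, n = 5), with all 14 symbols measured. Only CP, the copper carrier ceruloplasmin, had a wide range, 1 of 14 (7.14%) beside 5.62% of all transcripts. CP had 538, 875, 3078, 1652 and 1302 normalized counts. It was highest in animal 3 and lowest in animal 1, and without either of them its range was not wide. RBP4 had 12329, 18479, 23748, 14120.5 and 18323 normalized counts. TTR, the thyroxine and retinol-binding protein carrier, had 6637, 12648, 13443, 11288 and 8918. Animal 1 was the lowest for 11 of the 14 carriers and animal 3 the highest for 9, but scaled by nuclear library size only each was so for 6. SHBG, the sex hormone-binding globulin, varied least, with 267, 220.0, 208, 209 and 242 normalized counts and a CV of 11.05%.

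Apolipoproteins, the protein part of lipoproteins, took 3.77% ± 0.983 of nuclear counts. The median CV of the 13 measured members was 32.7%, beside 22.6% for all transcripts. The lowest animal was animal 1 for 7 members and animal 5 for the other 6, or, scaled by nuclear library size only, animal 1 for 3 and animal 5 for 9. APOA1 had 8587, 16408, 12346, 16819.5 and 11475 normalized counts. APOA2, the other major protein of high density lipoprotein, had 3285, 12234, 10844, 6377 and 3325. APOE, the ligand by which remnants are cleared, had 2555, 7673, 5882, 6255 and 2781 normalized counts, with the lowest values in animals 1 and 5. APOB, the structural protein of the lipoproteins that the liver secretes, had 1955, 2606, 4257, 2372 and 1604. The 1 wide member of 13 (7.69%) was APOA4, found on chylomicrons and high density lipoprotein, with 15.0, 42.7, 39.3, 249.5 and 65.1 normalized counts. It was highest in animal 4, and without animal 4 its ratio was 4.35.

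None of the 20 measured coagulation and fibrinolysis genes had a wide range, and the list took 3.03% ± 0.814 of nuclear counts. The 3 fibrinogen chains, whose product forms the clot and which are also acute phase proteins, were among the 4 most abundant members. FGA had 4348, 5251, 15214.5, 4798 and 4949 normalized counts. FGB had 4042, 4499.8, 13178, 6639 and 7485 and FGG had 1867, 2042, 6655, 2208 and 3357. Animal 3 was the highest for all 3 chains, and for FGA animals 1, 2, 4 and 5 lay within 1.21-fold of each other. PLG, plasminogen, had 2351, 4275, 5013.5, 3726 and 3245 normalized counts. F11, coagulation factor XI, was among the 10 least variable abundant transcripts, with 597, 530.5, 612, 638 and 608 normalized counts and a CV of 6.75%. The vitamin K-dependent factors F2, F7, F9 and F10 and the anticoagulants PROC and PROS1 had CVs from 12.2% (PROS1) to 43.7% (F10).

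Complement, the plasma cascade that opsonizes and lyses microbes, also had no wide member among 16 measured and took 2.83% ± 0.439 of nuclear counts. C3 alone had 8211, 16439, 14394, 17055 and 10329 normalized counts. CFB, the protease of the alternative pathway, had 1662, 2961.5, 3799.6, 3458 and 2388. C9, the pore-forming component, had 1163, 1602, 3403, 2576 and 2779. Animal 1 was the lowest for 12 of the 16 genes and animal 3 the highest for 13, but for 6 and 8 when scaled by nuclear library size only. The sum of the list was highest in animal 3 on the normalized scale and in animal 4 by share of counts, and lowest in animal 1 on both. C1R, a protease of the classical pathway, had the largest range of the list (186, 449, 599, 193 and 175 normalized counts), and C8B the smallest (883, 864, 1356, 941 and 1079).

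Acute phase proteins and protease inhibitors took 3.99% ± 0.655 of nuclear counts, and 4 of 12 measured members had a wide range (33.3%, beside 5.62%). These were CRP, SERPINA3, LBP and ORM1, and the median CV of the list was 42.6%. CRP, the pentraxin C-reactive protein (chromosome 20 from 4232913 to 4235378), had 637, 1683, 5464, 1114 and 1195 normalized counts. SERPINA3, alpha-1-antichymotrypsin, had 672, 1198, 4252, 578 and 722. LBP, which carries bacterial lipopolysaccharide, had 32.1, 65.8, 278, 148 and 165. Animal 3 was the highest for these 3 genes, and for CRP and SERPINA3 its level was more than 3 times that of any other animal. Without animal 3 only 1 of the 12 members had a wide range. ORM1, an alpha-1-acid glycoprotein, had 1063, 3589, 5011, 2932 and 3760.0 normalized counts and was low in animal 1, but its reads may be split with a near-identical paralog. The most abundant genes of the list had smaller ranges. SERPINA1 had 6778, 11442, 17736, 13010.0 and 12906 normalized counts, a 2.62-fold range. ITIH4, an inter-alpha-trypsin inhibitor heavy chain, had 10364, 11397, 11175, 13127 and 12080.3, a CV of 8.93%. SAA1, SAA2, HP and ORM2 matched no gene name, so the share and the counts of this list leave them out. Whether unnamed genes such as ENSCSAG00000004233 and ENSCSAG00000004969, which lies beside SAA4, are among them was not tested.

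Hepatokines, hormones and their binding proteins took the smallest secreted share (0.765% ± 0.188) and had the largest median CV of the 6 secreted lists, 48.3%. Of its measured members 7 of 14 had a wide range, beside 5.62% of all transcripts. Without animal 2 or animal 5 the number was 5 of 14, and without animal 3 it was 5 of 12. At a minimum mean of 200 counts it was 2 of 8. The most abundant member was IGFBP1, the insulin-regulated binding protein of insulin-like growth factors, with 1580.1, 1416, 3395, 3722 and 6698 normalized counts, highest in animal 5. IGFBP2, another binding protein, had 15.0, 17.5, 128, 109 and 243, low in animals 1 and 2 and also highest in animal 5. FGF21, a hormone that the liver releases under metabolic stress, had 0.534, 14.4, 98.5, 3.51 and 2.13 normalized counts from 1, 28, 228, 3 and 2 estimated counts. Most of the counts of FGF21 were in animal 3, without which its mean fell under 50 counts, and animals 1 and 5 were under 3 counts. GDF15, a stress hormone of the TGF-beta family, had 13.9, 16.4, 168, 11.7 and 13.9, so that animal 3 was high and the other 4 animals lay within 1.40-fold. Without animal 3 the mean of GDF15 also fell under 50 counts. ANGPTL8, an insulin-responsive inhibitor of lipoprotein lipase, had 15.0, 117, 121, 21.1 and 8.54 normalized counts, high in animals 2 and 3 only. HAMP, hepcidin, the hormone that limits iron uptake, had 114, 16.4, 76.9, 84.3 and 82.2, low in animal 2. IGFALS, the acid-labile subunit, had 142, 459, 193, 198 and 101, high in animal 2. AGT, angiotensinogen, had 1591, 2188, 2104, 1644 and 1482. LECT2, a secreted chemotactic factor, had 354, 462, 556, 437 and 368, and both stayed within 2-fold. IGF1, the growth factor itself, had a mean under 50 counts (16, 39, 24, 8 and 8 estimated counts).

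**Figure D3:**
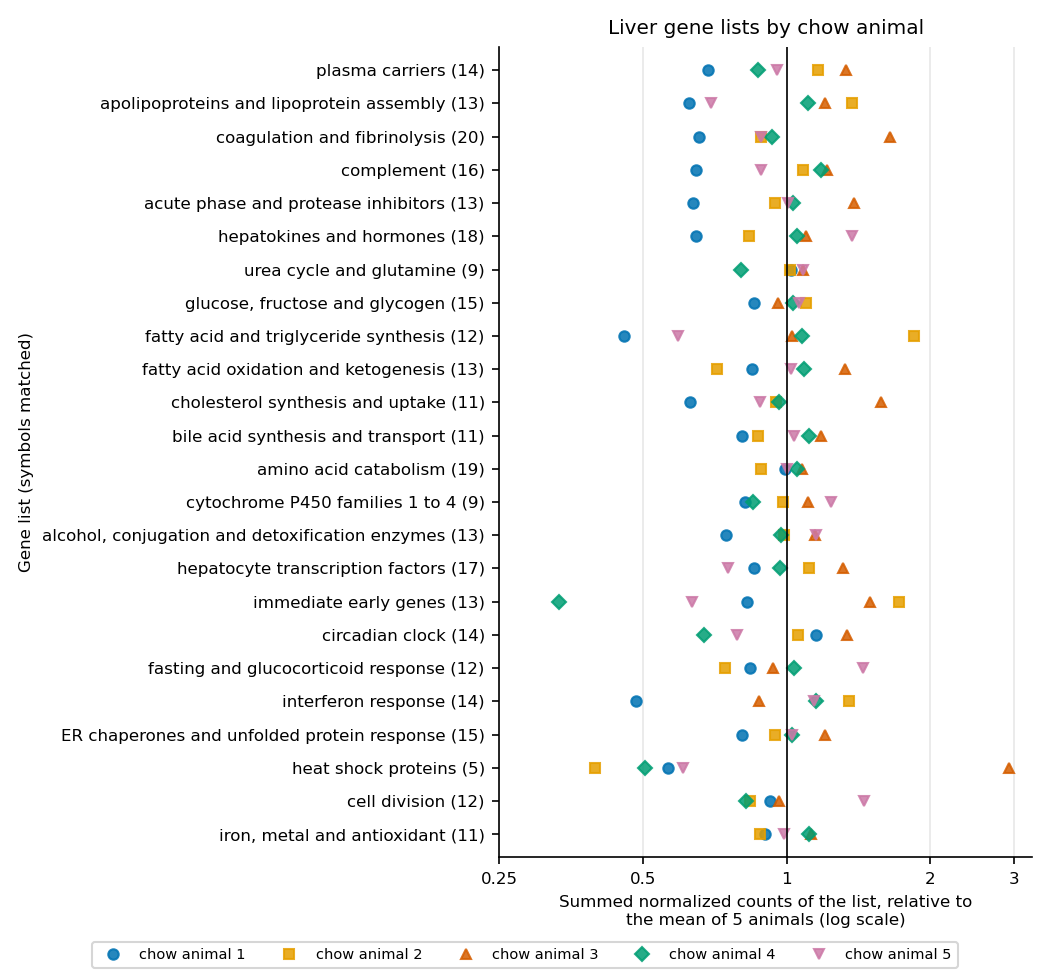
Summed normalized counts of each secreted, metabolic, regulator and response list in each chow animal (lists of cell type markers are not plotted), relative to the mean of the 5 animals (log axis; the vertical line is 1, and the number of matched symbols is in brackets). Animal 1 is lowest for all 6 secreted lists (by nuclear library size only animal 5 is for apolipoproteins); of the lists plotted, fatty acid and triglyceride synthesis, immediate early genes and heat shock proteins are spread most, and amino acid catabolism least.

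On the normalized scale the 6 secreted lists ranged 1.89-fold to 2.51-fold between animals, and 7 of the 9 metabolic lists ranged 1.22-fold to 1.86-fold. The exceptions were fatty acid and triglyceride synthesis (4.05-fold) and cholesterol synthesis (2.52-fold). Scaled by nuclear library size only, the secreted lists ranged 1.41-fold to 1.88-fold and the same 7 metabolic lists 1.27-fold to 1.68-fold.

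Urea cycle and glutamine genes, which detoxify ammonia, took 0.382% ± 0.0620 of nuclear counts, with no wide member among 7 measured. ARG1, arginase, which releases urea, had 1572, 1305, 1601, 1222 and 2169 normalized counts. OTC, ornithine transcarbamylase, had 538, 574, 726, 518 and 553, highest in animal 3 on this scale and in animal 1 by nuclear library size only. CPS1, the mitochondrial entry enzyme of the cycle, had 280.0, 196, 292, 119 and 224. Amino acid catabolism took 1.48% ± 0.189, and its summed normalized counts stayed within 1.22-fold. BHMT, betaine-homocysteine methyltransferase, had 1590.2, 2323, 4189, 2209 and 2628 normalized counts and was lowest in animal 1. AGXT, which clears glyoxylate, had 1673, 1646, 1632, 2635 and 1568 and was highest in animal 4. A wide range was found for 1 of its 18 measured members (5.56%): SDS, serine dehydratase, had 515, 388, 142, 19.9 and 333 normalized counts. It was low in animal 4, and without animal 4 no member of the list was wide. TDO2, which opens tryptophan breakdown, varied least of the list by ratio, with 562, 415, 519, 415 and 476.

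Glucose, fructose and glycogen genes took 0.834% ± 0.0777 of nuclear counts, of which PCK1 made up more than any other member. PCK1 had 4202, 3852, 3926, 4871 and 5580.3 normalized counts, a 1.45-fold range. KHK, ketohexokinase, which begins fructose breakdown, had 533, 802, 685, 720.4 and 527. Animal 2 was the highest for 10 of the 13 measured members. A wide range was found for 2 of the 13 (15.4%), for none of the 12 still measured without animal 2 and for 1 of 13 without animal 5. TKFC, the triokinase of fructose metabolism, was among them, with 59.8, 138, 67.4, 72.6 and 28.8. SLC2A2, the hepatic glucose transporter, had 353, 726, 544, 624 and 505. G6PC, the last step of glucose release, had only 42, 48, 74, 13 and 24 estimated counts.

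Fatty acid and triglyceride synthesis had the largest spread of the metabolic lists: 5 of 7 measured members had a wide range (71.4%, beside 5.62%), the median CV was 61.3%, and the summed normalized counts were 1265, 5119.7, 2836, 2980.1 and 1637, a 4.05-fold range. FASN, fatty acid synthase (chromosome 16 from 73982899 to 74006552), had 27.8, 988, 282, 282 and 36.3 normalized counts from 52, 1922, 652, 241 and 34 estimated counts. SCD, stearoyl-CoA desaturase (chromosome 9 from 93380914 to 93398913), had 20.8, 989, 317, 623 and 237 normalized counts from 39, 1924, 735, 532 and 222 estimated counts. Both were highest in animal 2 and lowest in animal 1, each time with 34 counts or more. SREBF1, the sterol-regulated transcription factor gene that drives lipogenesis, had 58.2, 264, 154, 139 and 43.7. GPAM, the first enzyme of glycerolipid synthesis, had 334, 1355, 1043, 839 and 627. PNPLA3, a lipid droplet protein, had 25.1, 114, 89.8, 166 and 52.3 and was the member highest in animal 4. Animal 2 was the highest for 6 of the 7 members and animal 1 or 5 the lowest for all 7. Without animal 2, 3 of 7 members were still wide. DGAT2, which completes triglycerides, stayed within 1.91-fold (511, 940.2, 614, 675 and 492 normalized counts). ACACA, ACLY, ELOVL6, ME1 and THRSP had means under 50 counts.

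Fatty acid oxidation and ketogenesis had 1 wide member of 12 measured (8.33%) and took 0.962% ± 0.174 of nuclear counts. That member was CPT1A, the gate of fatty acids into mitochondria, with 212, 68.4, 444, 474 and 580.4 normalized counts, lowest in animal 2, without which no member was wide. Animal 2 had the highest levels of FASN and SCD and the lowest of CPT1A. ACSL1, which activates long-chain fatty acids, had 3876, 2527, 5429.9, 3597 and 4167. FABP1, the liver fatty acid-binding protein, had 488, 804, 1833, 1715 and 959. Animal 2 was the lowest for 6 of the 12 genes, or 7 by nuclear library size only. Animal 3 was the highest for 7, or 2 by nuclear library size only.

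Cholesterol synthesis and uptake took only 0.120% ± 0.0288 of nuclear counts, and 4 of 7 measured members had a wide range (57.1%): HMGCS1, SQLE, DHCR7 and MVD. HMGCS1, the synthase at the head of the pathway, had 37.9, 116, 360.2, 249.5 and 77.9 normalized counts. SQLE, squalene epoxidase, had 3.21, 22.6, 75.2, 51.5 and 38.4. Both were highest in animal 3 and lowest in animal 1, and animals 1 and 5 were the 2 lowest for HMGCS1, DHCR7 and MVD. The count rested on single animals and on the scaling, with 1 wide member of 7 without animal 1, 1 of 5 without animal 3 and 2 of 7 when levels were scaled by nuclear library size only. INSIG1, which retains the sterol sensor in the endoplasmic reticulum, had 579.8, 640.0, 1103, 492 and 813, a 2.24-fold range. LSS and IDI1, enzymes of the pathway, were under 50 counts. Bile acid synthesis and transport had no wide member among 7 measured. SLCO1B1, a transporter for uptake from blood, had 1181, 1212, 1949.6, 1369 and 1749.8 normalized counts. SLC27A5, bile acid CoA ligase, had 790.3, 689, 831, 1341 and 844, highest in animal 4. AKR1D1, a reductase of the pathway, had 446, 430.2, 458, 561 and 511 and the smallest ratio of the list. CYP7A1, the rate-limiting enzyme, had only 23, 36, 62, 12 and 11 estimated counts.

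Drug and alcohol metabolism held some of the most even and some of the most variable genes of the liver. The cytochrome P450 families 1 to 4 took 1.996% ± 0.304 of nuclear counts with 9 of 16 symbols matched. CYP2E1 had 6616, 7811, 11388, 9840.0 and 10084 normalized counts. CYP3A4, which oxidizes many drugs, had 7178, 4998, 7492, 4269 and 7858, and both stayed within 2-fold. CYP2C8 had 309, 3883, 180.1, 163 and 3334, so that animals 2 and 5 were more than 10 times above animals 1, 3 and 4. CYP2B6 was the other wide member (2 of 7, 28.6%), with 135, 517, 287, 119 and 89.6, highest in animal 2, and without animal 2 only 1 of the 7 was wide. Assignment of reads among such near-identical P450 genes, and between GSTA1 and GSTA2, is uncertain. Among the conjugating and detoxifying enzymes, which took 1.71% ± 0.172, SULT2A1, the steroid and bile acid sulfotransferase, had 1072, 1147, 1007, 1081 and 1100.0 normalized counts and a CV of 4.69%. GSTA1, a glutathione transferase, had 2297, 2941, 4311, 4254 and 4722. AOX1, aldehyde oxidase, had 3290.0, 2927, 4402, 2379 and 3799. EPHX1 and MGST1 were wide (2 of 13, 15.4%), and both were highest in animal 2. EPHX1, microsomal epoxide hydrolase, had 167, 577, 396, 192 and 112. MGST1, a microsomal glutathione transferase, had 44.9, 217, 184, 79.7 and 45.9. Without animal 2 or animal 5 only 1 of the 13 was wide.

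**Figure D4:**
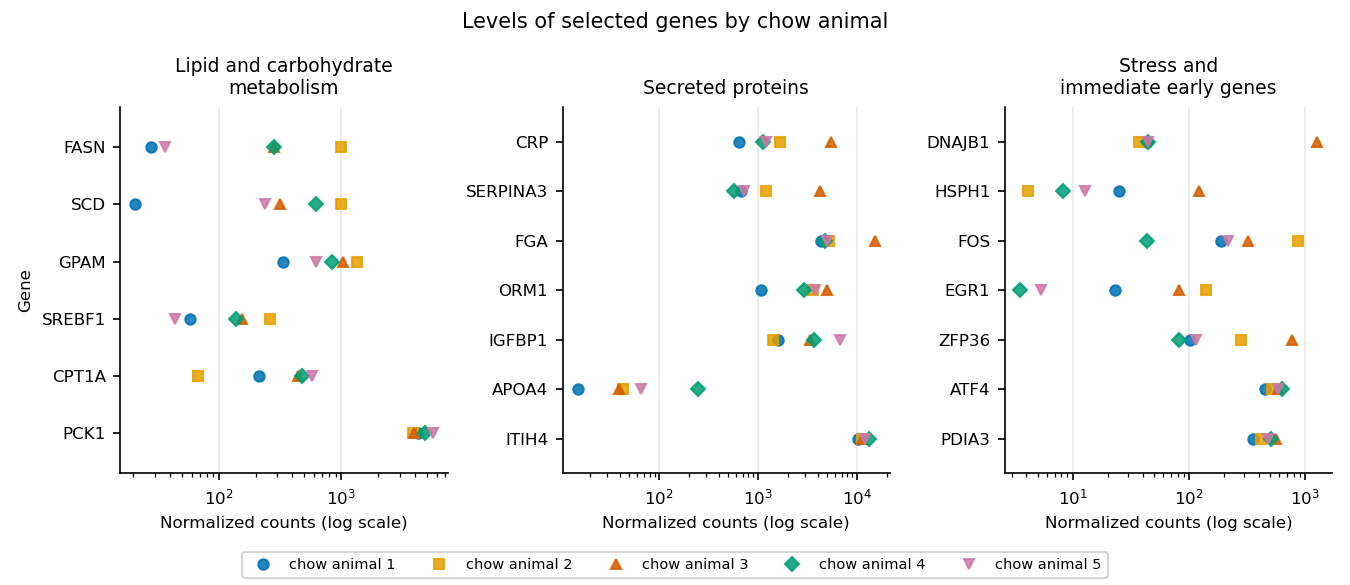
Normalized counts (log axes) of selected genes in each chow animal. FASN and SCD are highest in animal 2 where CPT1A is lowest; CRP, SERPINA3, FGA, DNAJB1 and HSPH1 are highest in animal 3; PCK1, ITIH4, ATF4 and PDIA3 lie close together in all 5 animals.

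Regulators of hepatocyte identity had a median CV of 24.9%, ER chaperones one of 19.5%, immediate early genes one of 72.7% and heat shock proteins one of 118%, beside 22.6% for all transcripts. HNF4A, the nuclear receptor that maintains hepatocyte identity, had 681, 580.3, 495, 432 and 355 normalized counts. NR1H4, the bile acid receptor, had 416, 336, 357, 291 and 357. RXRA, its partner, had 271, 309, 223, 289 and 260.3, the smallest ratio of the list. XBP1, which expands secretory capacity, was highest in animal 3 (527, 612, 1943, 898 and 769). NR0B2, a repressor induced by bile acid signalling, was the wide member of 9 measured (37.4, 117, 95.5, 49.2 and 13.9), and without animal 5 its range was not wide. ER chaperones and unfolded protein response genes had no wide member of 10 measured. ATF4, the transcription factor of the stress response, had 452, 515, 589.5, 635 and 580.4 normalized counts. PDIA3, which folds glycoproteins, had 354, 415, 558, 511 and 479. Animal 1 was the lowest for 8 of the 10, but for only 1 when scaled by nuclear library size only. Iron, metal and antioxidant genes had no wide member of 9 either. CAT, catalase, had 3257, 2795, 3920.4, 3998 and 3641. SLC40A1, the iron exporter, had 196, 164, 207, 185 and 204, a CV of 9.09%.

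Heat shock proteins, chaperones of unfolded cytosolic proteins, were high in animal 3. The summed normalized counts of the 5 matched genes were 396, 278, 2055, 354 and 426. DNAJB1, a cochaperone (chromosome 6 from 13173157 to 13176878), had 43.3, 37.5, 1268, 44.5 and 44.8, so that animal 3 lay far above the other 4, which stayed within 1.19-fold. HSPH1, a large chaperone, had 25.1, 4.11, 121, 8.20 and 12.8. HSPD1, the mitochondrial chaperonin, had 59.8, 52.9, 226, 32.8 and 58.7. Of 4 measured genes 3 were wide (75.0%, beside 5.62% of all transcripts). Without animal 3 none of the 3 genes still measured was wide, and HSPH1, whose mean then fell under 50 counts, still had a ratio of 6.11. HSP90AB1, the constitutive form, stayed within 2.35-fold (248, 166, 390.4, 257 and 293). Immediate early genes, transcribed within minutes of a stimulus, had 6 wide members of 9 (66.7%, beside 5.62%). FOS had 189, 871, 320.0, 43.3 and 219 normalized counts. EGR1, another transcription factor, had 23.0, 140.3, 81.6, 3.51 and 5.33. ZFP36, which destabilizes cytokine mRNAs, had 103, 279, 773, 82.0 and 114. Animal 4 was the lowest for 8 of the 9 genes, and animals 2 and 3 were the highest for 4 each. EGR1 in animal 4 rested on 3 counts. Animal 4 was also the library with the lowest nuclear depth and the highest mitochondrial share, and the part of these in the result was not tested.

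As lists, genes of the clock ranged 1.99-fold between animals, those of fasting and glucocorticoids 1.95-fold and those of the interferon response 2.80-fold, against 5.15-fold for immediate early genes and 7.39-fold for heat shock proteins. PER1, a clock repressor, had 363, 256, 238, 156 and 159 normalized counts. PER3, a relative of it, had 106, 86.4, 68.7, 75.0 and 77.9. BHLHE40, another repressor of the clock, was the wide member of 4 measured (77.5, 134, 326, 50.4 and 100.3), highest in animal 3. Without animal 3 none of the 3 clock genes still measured was wide, and without animal 5 there were 2 of 5. Of the fasting and glucocorticoid response genes 3 of 11 were wide (27.3%), namely IGFBP1, CPT1A and SDS described above. FKBP5, a target of the glucocorticoid receptor, had 106, 133, 146, 107 and 149. The interferon response genes, which restrict viruses, were lowest in animal 1 for 8 of 10 genes, or 6 by nuclear library size only. IFI6, an interferon-induced membrane protein, had 223, 877, 675, 695 and 676 normalized counts. MX1, an antiviral GTPase, had 60.9, 323, 86.4, 91.4 and 139.8, highest in animal 2. ISG15, a ubiquitin-like modifier, had 25.1, 58.1, 26.8, 139 and 43.7, highest in animal 4. ISG15, MX1 and OAS2 were wide (3 of 10), but without animal 1, 2 or 4 only 1 of them was, and without animal 2 or 4 the mean of OAS2 fell under 50 counts. Cell division genes gave almost no counts: 11 of 12 matched genes were under 50 and 1 had none, and the list took 0.00531% ± 0.00150 of nuclear counts. MKI67, the proliferation marker, had 5, 3, 5, 3 and 6 estimated counts.

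The markers of hepatocytes far exceeded those of every other cell type. They took 11.7, 16.1, 17.0, 13.4 and 14.0% of nuclear counts, and all 12 matched genes were measured. In bulk tissue fewer cells of a type and less RNA per cell cannot be told apart, and the lists differ in transcript length, so the shares below describe RNA and not cell numbers. Genes of hepatocytes near the portal vein took 8.52% ± 1.31, of which ALB took 7.79%, and genes of those near the central vein took 1.65% ± 0.225. Of the pericentral genes OAT, LEAP2 and NOTUM were wide (3 of 8, 37.5%, beside 5.62% of all transcripts). The number was 2 of 7 without animal 2 and 2 of 8 without animal 5. OAT, ornithine aminotransferase, had 2728, 377, 905, 601 and 1741 normalized counts, high in animals 1 and 5 and low in animal 2. LEAP2, a ghrelin receptor antagonist, had 20.3, 81.7, 127, 22.3 and 18.1, high in animals 2 and 3. GLUL, glutamine synthetase, the classical enzyme of the last hepatocytes before the central vein, had 419, 687, 640.1, 423 and 373, a 1.84-fold range.

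Each list of non-parenchymal markers took under 0.4% of nuclear counts in every animal. Stellate cell and fibroblast markers took 0.379, 0.124, 0.0839, 0.160 and 0.270%, and 3 of 9 measured genes were wide (33.3%, beside 5.62% of all transcripts). The number was 2 of 8 without animal 1, 2 of 10 without animal 3, 4 of 10 without animal 4 and 4 of 9 by nuclear library size only. DCN, the collagen-binding proteoglycan decorin, had 1172, 261, 248, 330.3 and 860.0 normalized counts. COL1A2, a chain of type I collagen, had 373, 142, 86.4, 198 and 408. LUM, lumican, another proteoglycan of the matrix, had 214, 37.0, 31.1, 39.8 and 153. All 3 were higher in animals 1 and 5 than in the other animals. ACTA2, the actin of activated stellate cells, had 45, 75, 21, 33 and 70 estimated counts. Sinusoidal and vascular endothelium markers took 0.199, 0.118, 0.111, 0.193 and 0.195%, with none of 12 wide. STAB1, a scavenger receptor of sinusoidal endothelium, had 493, 413, 247, 522 and 549. FCN2, a lectin that activates complement, had 275, 239, 408, 604 and 537. Kupffer cell and myeloid markers took 0.111, 0.0829, 0.103, 0.140 and 0.136%. In that list CD14, the lipopolysaccharide co-receptor, which hepatocytes also make, had 565, 653, 685, 709.9 and 619 and a CV of 8.77%. The 3 wide members of 7 (42.9%, beside 5.62%) were all lowest in animal 2. LYZ, lysozyme, had 88.2, 44.7, 94.6, 144 and 243. C1QB, a chain of complement C1q, had 50.2, 32.9, 61.3, 162 and 98.2. MARCO, a scavenger receptor of Kupffer cells, had 41.7, 23.1, 44.9, 111 and 76.8. Without animal 2 none of the 7 was wide, and without animal 4 only 1 was.

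Markers of blood, fat, muscle and the liver surface were low and uneven. JCHAIN, the joining chain of secreted immunoglobulins, had 361, 467, 645, 901 and 1610.1 normalized counts, highest in animal 5. Without animal 1 or animal 5, or scaled by nuclear library size only, its range was not wide. It was the only gene of 15 matched for lymphocytes and plasma cells that reached a mean of 50 counts. The T cell genes CD3D, CD3E and CD3G had at most 25 counts in an animal and CD8A and MS4A1 had none. HBB, beta-globin, had 253, 139.8, 231, 619.7 and 785, highest in animals 4 and 5, and its range was not wide without animal 2. PLIN1, a coat protein of lipid droplets, had 147, 98.7, 126, 579.9 and 431, also highest in animals 4 and 5. The adipocyte hormones ADIPOQ and LEP had no count in any chow animal. The mesothelial genes ITLN1 and MSLN were highest in animal 1. ITLN1, intelectin-1, had 174, 11.3, 1.30, 0 and 5.33 normalized counts from 326, 22, 3, 0 and 5 estimated counts. Without animal 1 its mean fell under 50 counts. MSLN, mesothelin, had 70.0, 26.7, 22.5, 32.8 and 25.6. PRG4, lubricin, which also counts as a surface marker here, was highest in animal 3 instead (186, 132, 374, 189 and 181). The smooth muscle genes DES and ACTG2 reached 80.0 and 63.0 normalized counts in animal 5 and at most 20.3 and 15.2 elsewhere. The skeletal muscle genes MYH2, MYH7, CKM and MB had no count. Of the cholangiocyte genes ANXA4 was measured (118, 161, 105, 64.4 and 162), and KRT19 and KRT7 were under 50 counts. PRSS2, CPA1, CPB1 and FABP2, genes of pancreas and gut, had no count.

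Shares of the stellate, endothelial, Kupffer cell, erythroid and adipocyte lists were all larger in animals 1, 4 and 5 than in animals 2 and 3. The same animals had the higher mitochondrial shares (57.1%, 73.6% and 68.7%, against 34.7% and 43.0%), the lower nuclear depths and the lower shares of secreted lists. On the normalized scale this held for 4 of these 5 lists, with summed counts of 3156, 1293, 962, 1617 and 2688 for the stellate list. It did not hold for the Kupffer cell list (926, 862, 1183, 1419.8 and 1349), in which animal 3 was above animal 1. The erythroid and adipocyte lists rested mostly on 1 gene each, HBB and PLIN1, the only members with a mean of at least 50 counts. The lymphocyte, cholangiocyte, mesothelium, muscle and pancreas and gut lists did not follow this split of the animals. The lymphocyte list, for example, took 0.0500, 0.0513, 0.0618, 0.0952 and 0.169% of nuclear counts, with animal 1 below animals 2 and 3. The part of mitochondrial share and depth in these shares was not tested.

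**Figure D5:**
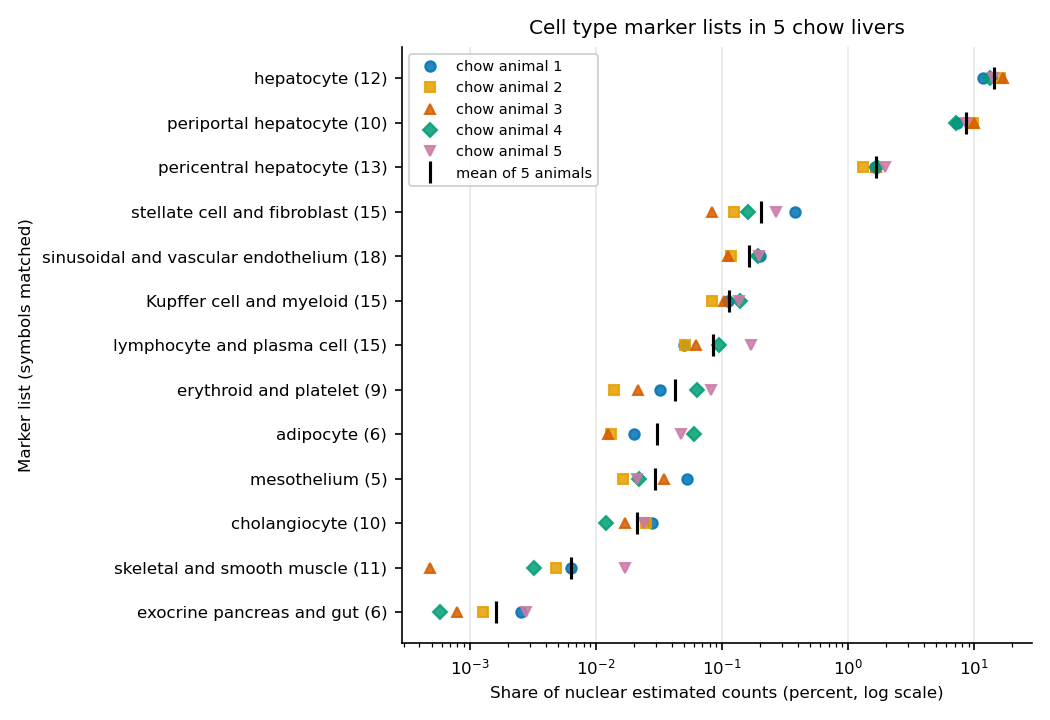
Share of nuclear estimated counts (percent, log axis) of each marker list in each chow animal, with a black bar at the mean of 5 and the number of matched symbols in brackets. Hepatocyte markers lie above 11% in all 5 livers, the stellate, endothelial and Kupffer cell lists between 0.0829% and 0.379%, and muscle, pancreas and gut markers at or below 0.0171%.

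Over all nuclear transcripts with a mean of at least 50 counts, the largest ratios belonged to genes of quite different kinds. The unnamed gene ENSCSAG00000019310 lies between NELFE and HSPA1L (chromosome 17 from 40203936 to 40205859). Its level in the 5 animals was 42.7, 23.1, 2226, 8.20 and 16.005, from 80, 45, 5154, 7 and 15 estimated counts. It was highest in animal 3, as were the heat shock genes, and without animal 3 its mean fell under 50 counts. ADH7, an alcohol dehydrogenase known from the upper digestive tract, had 2.14, 239, 27.2, 213 and 322. Animals 1 and 3 were low and the other 3 high. A gene of HLA class II, HLA-DRB1, had 38.5, 31.3, 0.868, 91.4 and 67.9 from 72.1, 60.8, 2.01, 78 and 63.6 estimated counts, low in animal 3, but reads of this polymorphic family can be split between copies or fail to align. Another unnamed gene, ENSCSAG00000004969, lies between HPS5 and SAA4 (chromosome 1 from 46672577 to 46676392). Its normalized counts were 26.7, 178, 292, 1783.5 and 168, highest in animal 4. The others of the 10 were ENSCSAG00000009455, ITLN1, FGF21, SCD, EGR1 and FASN.

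At the other end, the 10 smallest CVs among the 413 transcripts with a mean of at least 500 counts lay between 3.75% and 8.32%. RPS16, a protein of the small ribosomal subunit, had 505, 498, 538, 541 and 527 normalized counts. RPL15, one of the large subunit, had 338, 311, 360.2, 381 and 339. TGFBI, an extracellular matrix protein, had 591, 605, 665, 576 and 607. SULT2A1 and F11, given above, were also among the 10. CDO1, which oxidizes cysteine, had 673, 629.7, 671, 573 and 717. PIPOX, a peroxisomal oxidase of pipecolic acid, had 305, 352, 362, 363 and 371. The 7 named genes of these 10 ranged at most 1.25-fold on the normalized scale, over libraries whose nuclear depth differed 3.07-fold. The other 3 of the 10 had no gene name. All 10 were picked for even normalized counts, and as shares of nuclear counts all but PIPOX varied relatively more. RPS16 took 0.0524% ± 0.00549 of nuclear counts, CDO1 0.0657% ± 0.0104 and PIPOX 0.0350% ± 0.00234 (SD, n = 5). For these 413 transcripts the median absolute difference between 2 animals was 1.23-fold (animals 2 and 4) to 1.43-fold (animals 1 and 3).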

How the data were processed

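RNA of 10 vervet livers was sequenced, and the 5 chow libraries, each from a separate animal, were used. The authors aligned reads of quality Q30 or better to ChlSab1.1 (Ensembl) and quantified transcripts by expectation maximization in Partek Flow. The processing notes name CASAVA 1.8, FastQC and STAR 2.5.3a. The deposited values are estimated counts per transcript, not normalized. A second deposited table, of values the authors normalized by TMM, was not used. Coordinates are those of the deposited table.

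Mitochondrial transcripts (37 of 28078) were left out. TMM factors and the common biological coefficient of variation came from edgeR 4.0.16 in R 4.3.3, without rounding of counts. CVs and ratios were taken for transcripts with a mean of at least 50 counts, with values below 3 counts per library set to 3 in a ratio. Paralogs, overlapping genes and antisense genes can share reads. The steps were tested on simulated data. No test of a difference was run, and single animals lying apart were screened for with Dixon's criterion. With 1 group of 5 animals the smallest two-sided p of an exact sign-flip test would be 0.0625.

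Members and gene lists were chosen with earlier results of these data known. The genes named were, for each list, its 4 most abundant members and those of the largest and smallest ratio, and over all transcripts the 20 most abundant, the 10 of largest ratio and the 10 of smallest CV. Other wide members, members under 50 counts or without a count, APOB and the vitamin K-dependent factors were named after their values had been seen. A few genes that this rule selects are not reported here. Symbols that matched no gene name of the table were not analysed under that symbol, and transcripts without a gene name were assigned to no list. Alternatives covered scaling (nuclear library size only, DESeq2 1.42.0 size factors), the count minimum, the ratio, the floor, the denominator, summing by gene name and leaving out animals.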

Additional observations from a re-analysis of the deposited data

Results flagged for a closer look

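Each summed list (37) and each gene named by rule (181) was screened for a single animal lying apart from the other 4. This was taken as a gap to the nearest animal of more than 0.71 of the whole range (Dixon's criterion for 5 samples). Chance alone gives this in about 1 in 20 groups of normally distributed values. That rate does not hold here, since many of the genes were named for a large or small ratio and the lists were chosen with earlier results known. The screen also used untransformed normalized counts, on which a high animal stands apart more easily than a low one. Genes named after their values had been seen, such as CRP, SERPINA3, GDF15, CAPSL, UGT3A1 and ARRDC3, were not screened. The criterion was met by 5 lists and 23 genes, in 13 cases in animal 3, in 6 in animal 4, in 4 in animal 5, in 3 in animal 1 and in 2 in animal 2. All but the urea cycle and glutamine sum were on the high side. Genes and lists overlap and share libraries, so these cases are not independent. Scaled by nuclear library size only, 10 of the 28 no longer met the criterion: the summed urea cycle, cell division and muscle lists and AGXT, SLC27A5, OTC, ZFP36, RRM2, DES and PRG4. On that scale 7 other lists or genes met it. OTC was then highest in animal 1. With DESeq2 size factors 2 no longer met it, the summed coagulation and urea cycle lists.

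Animal 3 lay above the others in summed normalized counts of coagulation (51221, others 20377 to 28899) and heat shock genes (2055, others 278 to 426). By gene it did so in FGA (15214.5, others 4348 to 5251), DNAJB1 (1268, others 37.5 to 44.8), HSPD1 (226, others 32.8 to 59.8), HSPH1 (121, others 4.11 to 25.1), ENSCSAG00000019310 (2226, others 8.20 to 42.7) and XBP1 (1943, others 527 to 898). The same held for ZFP36 (773, others 82.0 to 279), FGF21 (98.5, others 0.534 to 14.4), OTC (726, others 518 to 574), PRG4 (374, others 132 to 189) and RRM2, a subunit of ribonucleotide reductase (9.50, others 1.17 to 3.21).

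Animal 4 lay below the others in the urea cycle and glutamine sum (3047, others 3871 to 4112). It lay above them in ENSCSAG00000004969 (1783.5, others 26.7 to 292), AGXT (2635, others 1568 to 1673), SLC27A5 (1341, others 689 to 844), APOA4 (249.5, others 15.0 to 65.1) and ISG15 (139, others 25.1 to 58.1). This was the library of the lowest nuclear depth (864571 counts) and the highest mitochondrial share (73.6%), and their part in these values was not tested.

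Animal 5 stood apart in the sums of muscle markers (169.6, others 5.61 to 52.9) and cell division genes (76.8, others 43.3 to 51.0), and in DES (80.0, others 0 to 20.3) and ACTG2 (63.0, others 3.02 to 15.2). Animal 1 did so in 3 mesothelial genes, ITLN1 (174, others 0 to 11.3), MSLN (70.0, others 22.5 to 32.8) and WT1 (10.7, others 0 to 1.17). Animal 2 stood apart in FASN (988, others 27.8 to 282) and in PNLIP, pancreatic lipase (0.514, with no count in the others), which is a single count.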

How the results depend on the processing

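With mitochondrial transcripts in the denominator the 10 most abundant nuclear transcripts took 9.17% of counts, the secreted lists 12.95% and the metabolic lists 3.60%. Leaving out 1 animal at a time gave 19.5% to 21.1%, 27.0% to 29.7% and 7.94% to 8.28% of nuclear counts. The number of transcripts with a wide range followed the count minimum (512 of 6625 at 20 counts, 77 of 1142 at 200 and 1520 of 15358 with none) and the ratio asked for (461 at 3, 67 at 8). It was 143 of 4872 without animals 4 and 5, an alternative chosen after seeing the data, 155 to 221 with 1 animal left out, 237 by nuclear library size only and 239 with DESeq2 size factors. The biological coefficient of variation was 31.0% by nuclear library size only, 33.1% at a minimum of 200 counts, 32.3% with no minimum and 28.7% to 30.5% with 1 animal left out. Without animals 4 and 5 the wide members numbered 0 in the apolipoprotein, amino acid, transcription factor and Kupffer cell lists and 1 in the glucose, P450, conjugation, fasting and interferon lists. Scaled by nuclear library size only, the highest animal was animal 4 for bile acid genes and animal 1 for urea cycle, amino acid, clock, cholangiocyte and endothelial genes, animal 4 for complement and iron genes and animal 5 for glucose genes. The lowest was then animal 5 for apolipoproteins, animal 2 for bile acid genes and ER chaperones, animal 3 for glucose, endothelial and adipocyte genes and animal 4 for P450 and periportal genes. Of 1267 recomputed levels of named genes, 1 moved by more than the SD between animals. Leaving out 1 of 5 animals can hardly move a mean that far, so this count does not show that the levels are robust. Of 555 recomputed counts of wide members by list, 109 differed by over 1.5 times. Counts per kilobase were not run, since transcript lengths were not used. No paired analysis was possible because 1 group was described and no result came from a test. Depth limits transcripts of few counts: at a mean of 50 to 100 counts the median counting error was a CV of 13.01%.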

Other observations

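Of 3425 named transcripts in none of the lists with a mean of at least 50 counts, 21 had a ratio of at least 10. Among all 4131 measured transcripts 48 did. Animal 3 was the highest for 10 of the 21, animal 4 for 4, animals 2 and 5 for 3 each and animal 1 for 1. Of all wide transcripts animal 3 was the highest for 30.6%, animal 2 for 22.4%, animal 5 for 22.0% and animals 1 and 4 for 12.5% each. The genes named below were picked for their ratio after their values had been seen. PLA2G2A, a secreted phospholipase and acute phase gene, had 15.5, 84.8, 248, 175 and 59.8 normalized counts in animals 1 to 5. G0S2, an inhibitor of the lipase ATGL, had 10.2, 47.3, 91.1, 21.1 and 2.13, and without animal 3 its mean fell under 50 counts. VNN1, the pantetheinase vanin-1, had 7.48, 70.9, 197, 96.1 and 148, lowest in animal 1.

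PPP1R3C, which targets a phosphatase to glycogen, had 51.3, 129, 279, 43.3 and 27.7. ARRDC3, an arrestin-like adaptor, had 44.4, 132, 642, 44.5 and 59.8. LRG1, an acute phase glycoprotein, had 19.2, 78.6, 157, 24.6 and 12.8. All 3 were highest in animal 3, the animal of the highest CRP and DNAJB1. Animal 2, with the highest FASN, was also highest in CAPSL (42.7, 619.9, 24.6, 24.6 and 20.3) and in UGT3A1, a glycosyltransferase (31.0, 496, 76.0, 64.4 and 33.1). Without animal 2 the mean of CAPSL fell under 50 counts. BMP5, a growth factor of the TGF-beta family, was highest in animal 1 and lowest in animal 4 (79.6, 19.02, 16.8, 3.51 and 41.6). Without animal 1 its mean fell under 50 counts.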
